A study of Mus musculus with 18 samples.

Results

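The comparison described here sets mouse embryonic stem cells in which BAP1 was knocked out against untreated cells of the same line. It uses 6 of the 18 libraries of the series, chosen by their labels, and all 36528 genes listed for each library, of which 16875 had enough counts to be tested. The knockout libraries (3) came from the conditional knockout line (cKO) given 100 nM 4-hydroxytamoxifen for 4 days, which starts recombination by the Cre enzyme. The untreated libraries (3) came from the same line at day 4, labelled as its control with no drug named. All cells of the series also received emricasan, which blocks caspases, so no group was free of it. Levels in 3 wild-type libraries at day 4 are given as context, and 3 libraries of a line carrying the inactive C91A form of BAP1 after the drug, with 3 of that line untreated, serve as a second allele. The 3 remaining libraries came from a double knockout of BAP1 and RNF2, given 100 nM of the drug, at day 4. They are not compared here, but entered the filter, the estimate of spread and the mean levels over 18 libraries. The drug and Cre cannot be told apart from the loss of BAP1, because within the comparison only the knockout libraries had them. The C91A comparison also sets cells given 100 nM of the drug against untreated cells. A change seen with both alleles therefore cannot be told apart from an effect of the drug. The sources used here do not give the exons deleted, whether the line is 1 clone, or whether the 3 libraries of a group came from separate cultures, so p-values measure only the spread between these libraries.

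BAP1 is a deubiquitinase that takes ubiquitin off histone H2A, the mark that RNF2 and the other ligases of Polycomb repressive complex 1 put on, and that mark is linked to gene repression. BCL2 and MCL1 are survival proteins that hold back the pore-forming proteins BAX and BAK at mitochondria, while BH3-only proteins such as PUMA and NOXA counter them. In embryonic stem cells most developmental genes are kept at low levels, many of them under Polycomb marks.

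The knockout libraries held 12.1, 8.11 and 18 megacounts, against 22.1, 20.8 and 18.4 megacounts in the untreated libraries, and all 18 libraries ranged from 8.11 to 23 megacounts. The spread within a group exceeded counting error, with a chi-square per degree of freedom of 2.01 to 2.62 over the 6 pairs of libraries where counting error alone gives about 1, and the coefficient of variation fitted between them was 4.5%. Levels below are in CPM, a gene's counts set to a common library size after scaling, as mean ± SD with n = 3 per group unless each library is given. Differences are log2 fold changes, knockout minus untreated, with a standard error (SE), and p-values from the quasi-likelihood test of edgeR were adjusted by the Benjamini-Hochberg method across the 16875 genes. A gene is said to be called where the adjusted p was under 0.05. Per-length values, used only where the levels of 2 genes are compared, are the deposited RPKM.

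Markers of embryonic stem cells were abundant in both groups. The summed level of 12 such markers was 4162 to 4318 CPM in the knockout libraries, against 5275 to 5402 CPM in the untreated libraries and 4742 to 4954 CPM in wild type. Of the 12, 9 were lower in the knockout and 1, Esrrb, was higher, beside 30.3% lower and 31.3% higher over all tested genes. Pou5f1, which encodes OCT4, stood at 923 CPM in knockout, 1094 CPM in untreated and 994 CPM in wild-type cells. Wild type lay below both groups for some markers, among them Nanog (203 CPM), Klf4 (105 CPM) and Sox2 (369 CPM). It lay above both for others, among them Utf1 (617 CPM) and L1td1 (309 CPM). In RNA from whole cultures, fewer cells of a type and less RNA per cell cannot be told apart. Markers of 7 other cell types were summed too and are given beside related gene groups.

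Promoters of 3 genes are shown because the largest changes turn on them: Bcl2 and Mcl1, the survival genes with the largest loss of reads, and Acta1, the highest-ranked gene. They were chosen after the values were seen, and are RefSeq sequence of GRCm38.p6, 250 bases before to 50 after the start used in that table, on the minus strand for Bcl2 (chr1:106714241-106714540) and Acta1 (chr8:123894726-123895025) and on the plus strand for Mcl1 (chr3:95658471-95658770). For Mcl1 that start lies inside the annotated gene, which begins at base 95656944. Capitals mark CG pairs in Bcl2 and Mcl1, and the CArG box, the sequence bound by serum response factor, in Acta1.
Bcl2: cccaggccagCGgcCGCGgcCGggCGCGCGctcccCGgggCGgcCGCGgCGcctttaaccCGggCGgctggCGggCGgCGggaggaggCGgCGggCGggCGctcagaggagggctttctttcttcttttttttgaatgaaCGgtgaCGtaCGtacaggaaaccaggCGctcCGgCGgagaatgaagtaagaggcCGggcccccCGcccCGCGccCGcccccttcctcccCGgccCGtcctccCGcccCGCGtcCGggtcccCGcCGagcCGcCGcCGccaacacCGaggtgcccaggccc
Mcl1: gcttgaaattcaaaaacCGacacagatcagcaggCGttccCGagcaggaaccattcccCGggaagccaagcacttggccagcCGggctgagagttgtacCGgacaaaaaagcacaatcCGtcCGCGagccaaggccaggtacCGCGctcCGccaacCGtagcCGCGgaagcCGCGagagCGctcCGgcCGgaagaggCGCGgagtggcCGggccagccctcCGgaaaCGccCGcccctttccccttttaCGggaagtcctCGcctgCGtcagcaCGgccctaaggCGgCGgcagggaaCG
Acta1: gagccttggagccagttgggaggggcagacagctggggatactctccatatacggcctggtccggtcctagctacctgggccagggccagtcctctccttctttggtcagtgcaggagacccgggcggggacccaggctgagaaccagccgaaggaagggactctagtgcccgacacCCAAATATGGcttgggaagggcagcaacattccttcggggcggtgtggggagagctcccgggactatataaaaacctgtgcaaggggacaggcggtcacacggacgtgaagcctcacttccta
The Bcl2 window held 44 CG pairs and that of Mcl1 33, against a median of 20 over the 11487 tested protein-coding genes with a window in the table. Other genes with large losses did not share these high numbers, with 23 CG pairs in the window of Inhbb, 10 in that of Zbtb32 and 2 in that of Igsf23. A CArG box in the strict form CCWWWWWWGG, where W is A or T, was searched on both strands and was present in 1.31% of those windows. In Acta1 its first base lay 73 bases upstream of the start. The window of Acta2, ranked next, held no strict match, but it held CCCTATATGG, which differs from that form by a single letter. Such near matches were not counted. A match of letters is a description and not a measured binding site.

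The comparison spread over most of the transcriptome. Of the genes tested 61.6% were called, 5283 (31.3%) higher and 5109 (30.3%) lower in the knockout, and 66.3% had library ranges that did not overlap between the groups. Most changes were small: the median size among called genes was 0.53 on the log2 scale, and 1820 called genes differed by less than 1.2-fold. Larger changes were more often losses, with 812 genes (4.81%) at least 2-fold higher and 1771 (10.5%) at least 2-fold lower, and 125 higher and 538 lower by at least 4-fold. The median over all genes was -0.0061.

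**Figure D1:**
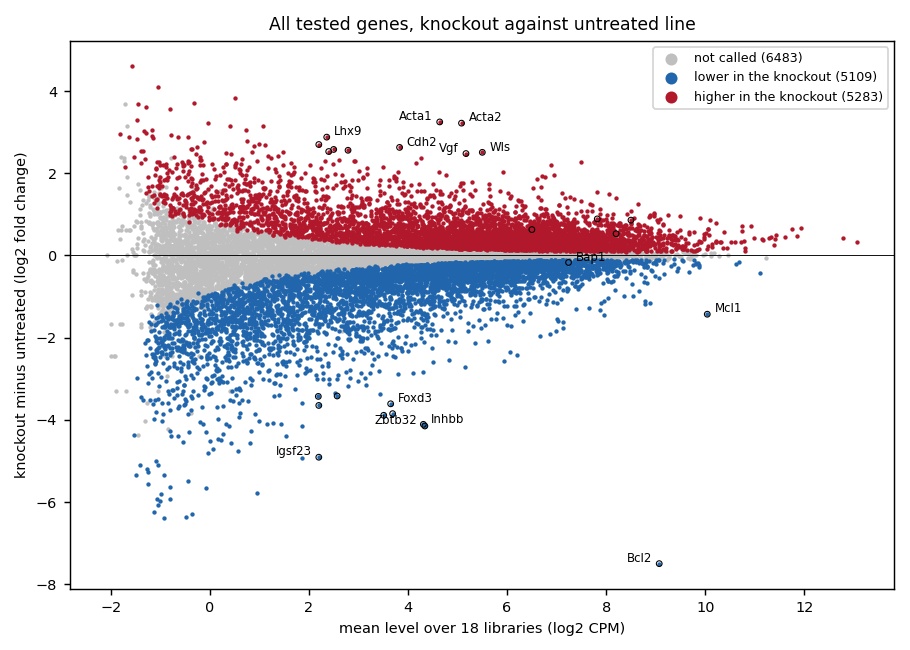
Each point is 1 of 16875 tested genes, placed by its mean level over 18 libraries (log2 CPM) and its log2 fold change, knockout minus untreated; colours give the call and circles mark genes named in the text. Bcl2, at -7.50, lies apart from all other abundant genes, and the genes with large losses lie mostly at low levels.

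Bap1 itself lost little read count. It had 151, 147 and 152 CPM in the knockout libraries, against 170, 167 and 169 CPM in the untreated libraries. The groups did not overlap, and the log2 fold change was -0.17 (SE 0.05, adjusted p = 0.0027). The count covers the whole gene (chr14:31251352-31259930) and the exons removed are not given in the sources used here, so this value does not check the deletion.

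Bcl2, the survival gene, had 3.33, 4.23 and 6.02 CPM in the knockout libraries, against 882, 847 and 855 CPM in the untreated libraries; wild type stood at 797 ± 128 CPM. All knockout libraries were far below every untreated one, with 169 counts in the 3 knockout libraries together and 54427 in the untreated ones, and the log2 fold change was -7.50 (SE 0.33, adjusted p = 1.7e-22). Mcl1, the related survival gene, had 518, 554 and 526 CPM in the knockout, against 1446, 1405 and 1455 CPM in the untreated line. Its groups did not overlap either, at -1.43 on the log2 scale (SE 0.04, adjusted p = 1.4e-28). Per length, Bcl2 stood at 0.564 RPKM in the knockout and 107 in the untreated line, and Mcl1 at 133 RPKM in the knockout and 357 in the untreated line.

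The 4 other BCL2 family genes that were always named went the other way. Bcl2l1, which encodes the survival protein BCL-XL, had 95.6, 96.1 and 102 CPM in the knockout, against 66.2, 59.9 and 64.3 CPM in the untreated line, a difference of 0.63 (SE 0.06, adjusted p = 4.8e-13). Bbc3, the gene of the BH3-only protein PUMA, averaged 392 ± 26.6 CPM in the knockout and 211 ± 3.71 CPM in the untreated line (0.89, adjusted p = 1.2e-16). Pmaip1, the gene of NOXA, averaged 577 ± 19.0 CPM in the knockout and 317 ± 1.83 CPM in the untreated line (0.86, adjusted p = 1.9e-18). Bax, which encodes a pore-forming protein, averaged 413 ± 21.3 CPM in the knockout and 287 ± 3.33 CPM in the untreated line (0.53, adjusted p = 9.5e-12). None of these 4 genes overlapped between the groups. Among the 14 tested members of the list of survival genes and caspase inhibitors, 5 were higher and 5 lower. Birc3, an inhibitor of apoptosis, had 15, 8 and 24 counts in the knockout libraries, against 112, 93 and 72 in the untreated libraries, and Septin4, whose product ARTS antagonises such inhibitors, rose by 1.66 to 15.8 ± 1.83 CPM in the knockout, against 4.94 ± 0.406 CPM.

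**Figure D2:**
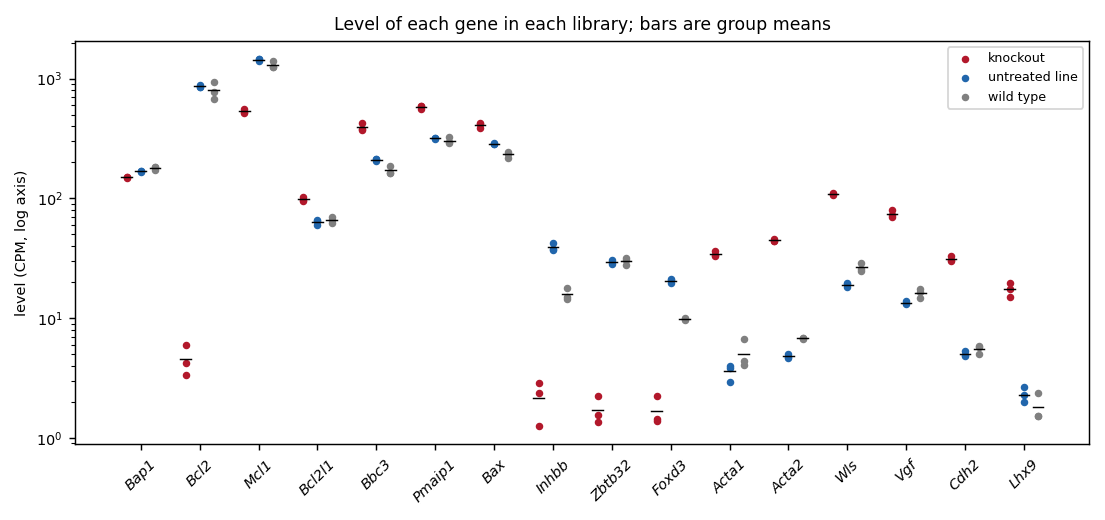
Points are single libraries and bars group means, in CPM on a log axis, with the knockout left, the untreated line in the middle and wild type right for each gene. Bap1 changes little, Bcl2 falls to single digits in the knockout, and Acta1, Acta2, Wls, Vgf, Cdh2 and Lhx9 are higher in every knockout library than in any untreated one.

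The 10 genes with the highest fold changes, ranked by the rule for named genes, encoded cytoskeletal, adhesion and secreted proteins and a developmental factor. Acta1, skeletal muscle alpha-actin, had 33.3, 33.7 and 36.2 CPM in the knockout, against 3.87, 4.01 and 2.95 CPM in the untreated line (3.25, SE 0.14, adjusted p = 5e-23). Acta2, smooth muscle alpha-actin, had 45.7, 44.4 and 44.5 CPM in the knockout, against 4.70, 4.67 and 5.06 CPM in the untreated line (3.22, SE 0.09, adjusted p = 8.7e-30). Both were at low levels in wild type too, at 5.03 and 6.80 CPM. Their annotated neighbours Gm29773 and Stambpl1 lie 1 and 3 bases from them and were not called. Lhx9, a LIM homeobox factor, had 17.6, 19.6 and 14.9 CPM in the knockout, against 2.64, 2.01 and 2.27 CPM in the untreated line (2.88). Wls, which carries WNT ligands to the cell surface, had 107, 109 and 110 CPM in the knockout, against 19.3, 19.7 and 18.2 CPM in the untreated line (2.51). Vgf, the gene of a secreted neuroendocrine precursor, had 80.3, 70.6 and 73.1 CPM in the knockout, against 13.9, 13.3 and 13.1 CPM in the untreated line (2.48). The remaining genes were Tgfb2, a ligand (2.70), Cdh2, the gene of N-cadherin (2.63), Sema3c, a semaphorin (2.58), Nell2, a secreted neural protein (2.56), and Ctnnd2, delta-catenin (2.53). By the rule, no library range of these 10 genes overlapped between the groups.

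Among the 10 lowest, Bcl2 was followed by genes with at most 80 counts over the 3 knockout libraries together. Inhbb, the gene of an activin subunit, had 1.26, 2.38 and 2.89 CPM in the knockout, against 37.4, 38.0 and 42.4 CPM in the untreated line (-4.11, SE 0.15, adjusted p = 3.5e-25). Wild type stood between them, at 15.7 ± 1.80 CPM. Zbtb32, a zinc finger repressor, had 1.35, 2.25 and 1.56 CPM in the knockout, against 29.2, 30.5 and 28.6 CPM in the untreated line (-4.15). It lies beside Gm32082 with no gap between the annotated genes, and Gm32082 was also lower (-2.97), so their reads may not be separable. Foxd3, a forkhead factor of pluripotent and neural crest cells, had 2.25, 1.45 and 1.38 CPM in the knockout, against 20.7, 19.7 and 21.3 CPM in the untreated line (-3.61, adjusted p = 1.4e-22). Igsf23, an immunoglobulin superfamily gene, had 2, 0 and 5 counts in the knockout libraries, against 133, 134 and 120 in the untreated libraries. Halr1, a long non-coding RNA (-3.89), Exoc3l, related to an exocyst subunit (-3.85), Prr19 (-3.65), Chrna9, a nicotinic receptor subunit (-3.43), and Adad2, an adenosine deaminase domain protein (-3.42), completed the set.

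Other genes were near silent in 1 group. Under the rule of a mean below 0.5 CPM in 1 group and at least 2 CPM in every library of the other, 5 genes were near silent in the untreated line and 38 in the knockout. The 5 from the untreated line were Dach1 and Eya4, both partners of sine oculis-type homeobox factors, Fat3, a giant cadherin, Scg2, the gene of secretogranin II, and Prkg1, a cyclic GMP-dependent kinase. Fat3 had 41, 33 and 73 counts in the knockout libraries, against 5, 8 and 5 in the untreated libraries, and Dach1 had 56, 32 and 61, against 17, 9 and 4. Of the 38, the 5 most abundant in the untreated line were Igsf23, Gm3336, Ace, Hopx and Tfr2. Hopx, a homeodomain-only factor, had 1, 2 and 6 counts in the knockout libraries, against 89, 95 and 99 in the untreated libraries. Tfr2, a transferrin receptor, had 2, 1 and 2 counts, against 113, 74 and 97.

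Ranked by the amount of RNA rather than by fold, the largest gains included both main elongation factors. Eef2, an elongation factor, averaged 9093 ± 296 CPM in the knockout and 6749 ± 92.0 CPM in the untreated line (0.43). Eef1a1, the other one, averaged 5547 ± 257 CPM in the knockout and 3515 ± 74.3 CPM in the untreated line (0.66). Hsp90ab1, a chaperone (0.33), Nedd4, a ubiquitin ligase (0.64), Rack1 (0.48) and Rps3 (0.50), both ribosomal, Fn1, fibronectin (0.71), and Tubb5, a tubulin (0.46), were the other large gains. Eef1a1 and the ribosomal genes have many processed copies in the genome, so uniquely aligned reads may undercount them. After Bcl2 and Mcl1 the largest losses were Aldoa, a glycolytic enzyme, with 1974 ± 92.7 CPM in the knockout and 2641 ± 58.3 CPM in the untreated line (-0.42), and Tet1, which oxidises methylcytosine, with 265 ± 10.8 CPM in the knockout and 599 ± 41.3 CPM in the untreated line (-1.18). Utf1 (-1.10) and Tdgf1 (-0.98), both stem cell genes, Igfbp2, an IGF-binding protein (-0.41, with 712 CPM in the knockout, 947 CPM in the untreated line and 630 CPM in wild type), and Trim28, a co-repressor (-0.21), followed. For 23 of the 149 called genes that the naming rule gave, the knockout mean lay nearer to wild type than the untreated mean did, a count added after the values were seen.

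The C91A mutant keeps the protein without its enzyme activity, and its difference from its own untreated line was set beside that of the knockout. The comparisons share no libraries but share the drug on the treated side, and the genes named were ranked on the knockout alone. The difference between the effects was tested in the same fit and was called for 25.9% of genes, 2054 with a positive and 2321 with a negative value. Bcl2 changed by -7.50 in the knockout and -3.76 in the C91A mutant, and the difference of -3.74 was called (SE 0.46, adjusted p = 3.2e-08). Of the other 9 genes with the lowest fold changes in the knockout, 8 also fell further there than in the C91A mutant: Inhbb changed by -4.11 in the knockout and -1.39 in the mutant (difference -2.72, adjusted p = 1.5e-11), and Igsf23 by -4.91 in the knockout and -1.87 in the mutant. The called difference was lost in at least 1 alternative for Chrna9 and Adad2, with adjusted p up to 0.18 and 0.15. Prr19 was the exception, at -3.65 in the knockout and -2.95 in the mutant (difference -0.70, SE 0.43, adjusted p = 0.25). Of the 10 highest, 6 showed no called difference. Acta2 rose by 3.22 in the knockout and 3.38 in the mutant (difference -0.16, SE 0.12, adjusted p = 0.37), Sema3c by 2.58 in the knockout and 2.63 in the mutant, and Tgfb2 by 2.70 in the knockout and 2.58 in the mutant. Bcl2l1 rose less in the knockout than in the mutant, at 0.63 and 1.16, and Bbc3, Pmaip1 and Bax rose more, with differences of 0.33, 0.46 and 0.29.

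**Figure D3:**
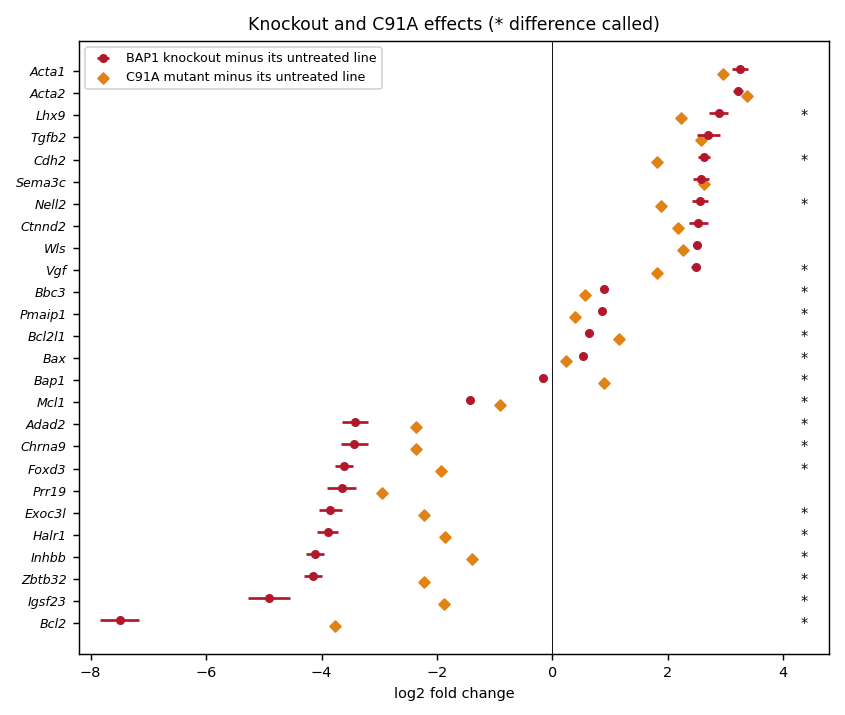
Log2 fold changes of 26 genes, the BCL2 family genes and Bap1 with the 10 highest and 10 lowest, knockout (circles, bars are SE) and C91A mutant (diamonds, no error drawn), each minus its own untreated line. Stars mark genes whose difference between the effects had an adjusted p under 0.05; they include all of the lowest genes except Prr19, and 4 of the 10 highest.

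Gene lists were written by role, 37 in all with 945 tested entries, and each is given by its counts beside the share over all genes, 31.3% higher and 30.3% lower. Those shares depended on level. In the highest of 5 level classes of equal size, 54.1% of genes were higher and 22.4% lower. In the lowest class 12.4% were higher and 26.8% lower. The lists were not matched for level. The median log2 fold change was above 0.25 in 11 lists, below -0.25 in 5, and between in 21, against -0.0061 over all genes.

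**Figure D4:**
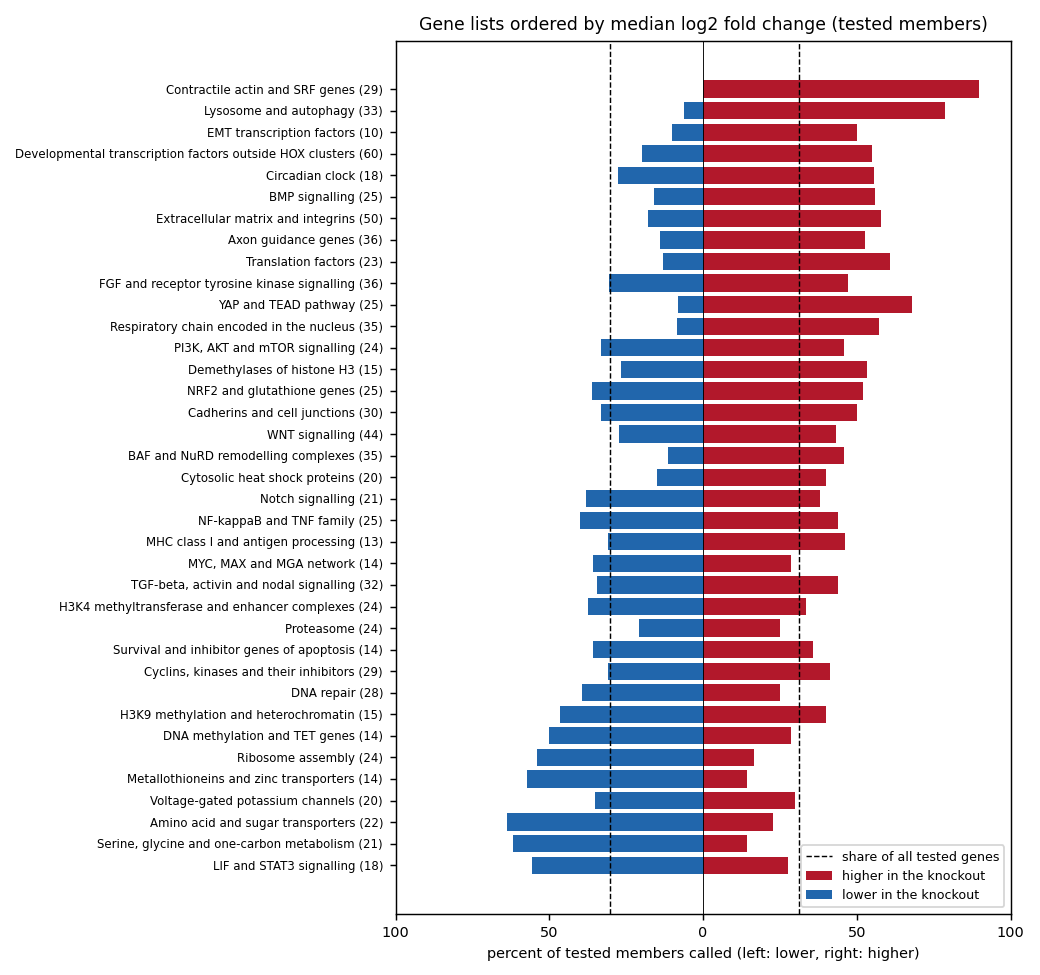
Bars give the percent of each list's tested members called higher (right) or lower (left) in the knockout, with the number tested in parentheses and dashed lines at the shares over all tested genes. Contractile actin genes reach 89.7% higher with none lower, lysosome and autophagy genes 78.8% higher, and amino acid and sugar transporters 63.6% lower.

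The contractile and cytoskeletal genes were the most one-sided list. Of 29 tested members 26 were higher and none lower, with a median of 0.67, and 10 were at least 2-fold higher. Besides Acta1 and Acta2, Tagln, the gene of transgelin, averaged 300 ± 20.8 CPM in the knockout and 62.0 ± 2.52 CPM in the untreated line (2.28, adjusted p = 1.4e-30). Vim, vimentin, averaged 271 ± 1.07 CPM in the knockout and 58.7 ± 1.27 CPM in the untreated line (2.21), with wild type at 56.6 CPM. Cald1, caldesmon (1.32), Tpm1, a tropomyosin (1.26), Myl9, a myosin light chain (1.17), and Tpm4 (1.07) followed, and Cnn1, calponin, averaged 12.3 ± 1.76 CPM in the knockout and 6.09 ± 0.658 CPM in the untreated line. Actg2, another actin, Srf, the factor that drives such genes, and its co-factor Mrtfa were not called. Of the 3 tested genes for SRF and its co-factors, 1 was higher. Muscle markers did not rise together: of 8 listed, Cnn1 was higher, Des (8.41 CPM in the knockout and 25.2 CPM in the untreated line) and Myh6 were lower, Myh11 and Ckm were not called, and Myog, Myod1 and Tnnt2 were too low to test. The sum of the 8 was 20.7 to 25.5 CPM in the knockout, against 32.9 to 38.1 CPM in the untreated line and 64.85 to 67.94 CPM in wild type.

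Genes of the YAP and TEAD pathway, which reads cell shape and density, were higher in 17 of 25 and lower in 2. Lats2, a kinase that restrains YAP, averaged 12.8 ± 0.589 CPM in the knockout and 4.46 ± 0.230 CPM in the untreated line (1.51). Among the 10 targets 6 were higher and none lower, with Crim1 (1.16), F3, tissue factor (1.15), and Ccn1 (1.01) the most changed, followed by Axl with 25.3 ± 2.60 CPM in the knockout and 12.6 ± 1.71 CPM in the untreated line, while Ccn2 was not called. Cadherins were higher in 9 of 12, with a median of 1.23. After Cdh2 came Pcdh7 (1.73), Cdh6 (1.70) and Pcdh19 (1.34), all at or under 3.03 CPM. Junction proteins did not follow: 6 of 18 were higher and 9 lower, with Cldn9 (-1.13), Tjp3 (-0.86) and Cldn3 (-0.80), which build tight junctions, among those lower and Dsp, desmoplakin (0.97), higher. Of 10 transcription factors of the epithelial to mesenchymal transition 5 were higher and 1 lower, led by Snai2 with 37, 24 and 58 counts in the knockout libraries, against 10, 17 and 11 in the untreated libraries (2.46), and Zeb2 (1.31). Foxc1 (0.70, adjusted p = 0.041) lost its call under most alternatives.

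Extracellular matrix genes and integrins were higher in 29 of 50 and lower in 9. Collagens were higher in 8 of 11 with none lower and a median of 1.08. Thbs1, thrombospondin 1, averaged 147 ± 6.47 CPM in the knockout and 38.7 ± 2.92 CPM in the untreated line (1.92, adjusted p = 1.4e-27). Fbn2, a fibrillin (2.22), Col5a2 (1.84), Efemp1 (1.83), Plat, a plasminogen activator (1.67), and Vcan, versican (1.44), were also higher, and Itga1 was lower (-1.53). Feeder-type fibroblast markers moved with these genes: the summed level of 11 was 47.5 to 50.8 CPM in the knockout, against 25.6 to 27.5 CPM in the untreated line and 46.9 to 50.0 CPM in wild type. Of the 11, Col1a1, Col1a2 and Dcn were higher, none was lower, Fap was at 0 in both groups and Lum averaged 0.0201 CPM in the knockout and 0.0176 CPM in the untreated line. Their part in the result was not tested.

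Axon guidance genes were higher in 19 of 36 and lower in 5, with 11 at least 2-fold higher. Sema3c and Sema6d (2.34) were higher, Sema4a was lower (-2.01), Efna5, an ephrin, averaged 24.9 ± 2.07 CPM in the knockout and 7.11 ± 0.352 CPM in the untreated line (1.80), and the receptors Nrp1 (1.93) and Nrp2 (-1.24) moved apart. Developmental transcription factors outside the HOX clusters were higher in 33 of 60 and lower in 12, with 18 at least 2-fold higher and 5 at least 2-fold lower. Lhx9, Meis2 (2.26), Zic1 (1.75), Foxa1 (1.61), Irx3 (1.57) and Gata2 were among those higher, and Gata2 was the most abundant of these, at 50.7 ± 2.35 CPM in the knockout and 18.9 ± 0.399 CPM in the untreated line (1.43). Foxd3, Sox18 (-1.57) and Eomes (-1.52) were lower. Markers of other lineages were summed beside them. Among 10 of primitive and visceral endoderm 5 were higher and none lower, with Ttr at 0 in both groups. Their sum was 22.99 to 25.51 CPM in the knockout and 15.65 to 18.01 CPM in the untreated line. Wild type lay above both, at 55.75 to 56.42 CPM. Among 8 of neurons and glia 2 were higher and 2 lower. Their sum changed little, at 109 to 126 CPM in the knockout, 107 to 112 CPM in the untreated line and 112 to 118 CPM in wild type. Among 7 trophoblast markers 4 were lower, at 88.9 to 93.1 CPM in the knockout, 118 to 123 CPM in the untreated line and 145 to 151 CPM in wild type. Their part was not tested.

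Signalling lists were mixed. Of TGF-beta, activin and nodal genes 14 of 32 were higher and 11 lower: ligands were split, with Inhbb and Lefty2 (-1.56, 23.4 ± 0.696 CPM in the knockout and 69.0 ± 1.90 CPM in the untreated line) lower and Tgfb2 higher, and Fst, follistatin, which binds activins, was higher (2.29). BMP genes were higher in 14 of 25 and lower in 4. Bmp4, a ligand, averaged 3.56 ± 0.395 CPM in the knockout and 14.0 ± 1.54 CPM in the untreated line (-1.96), the receptor Acvrl1 was lower (-1.82), Nog, the antagonist noggin, was higher (1.77), and Id2, a target gene, averaged 112 ± 4.86 CPM in the knockout and 39.3 ± 0.751 CPM in the untreated line (1.52, adjusted p = 1.1e-25). WNT genes were higher in 19 of 44 and lower in 12. Of the 12 WNT ligands 6 were at least 2-fold higher and 2 at least 2-fold lower, among them Wnt7a (1.59), Wnt6 (1.59), Wnt9a (1.56, 29.7 ± 2.03 CPM in the knockout and 9.97 ± 0.727 CPM in the untreated line) and Wnt3 (1.48) higher and Wnt3a (-1.62) and Wnt8a (-1.57) lower. Notum, a secreted enzyme that inactivates WNT, was lower (-1.77). Wnt3a had 6, 0 and 4 counts in the knockout libraries, against 20, 19 and 17, and lost its call at equal depth.

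Of FGF and receptor tyrosine kinase genes 17 of 36 were higher and 11 lower. Egfr, the receptor of epidermal growth factor, averaged 47.5 ± 1.98 CPM in the knockout and 11.7 ± 0.745 CPM in the untreated line (2.02, adjusted p = 1.7e-23), Igf1 (2.22), Fgf13 (1.71) and Nrg1 (1.65) were higher, and Fgf4, the main FGF ligand of stem cells, averaged 139 ± 7.76 CPM in the knockout and 310 ± 2.52 CPM in the untreated line (-1.16). Notch genes were split, 8 higher and 8 lower of 21, with Notch4 (-2.52) and Dll3 (-2.04) lower and Dll4 (1.99) higher. LIF and STAT3 genes leaned down, with 10 of 18 lower and 5 higher. Il6ra (-1.60), Tyk2 (-0.76) and Socs1 (-0.54) were the most changed. Il6ra had only 8, 5 and 5 counts in the knockout libraries, against 37, 42 and 21 in the untreated libraries. Tyk2, a kinase of the pathway, averaged 50.5 ± 2.05 CPM in the knockout, 85.1 ± 3.21 CPM in the untreated line and 50.2 ± 2.50 CPM in wild type, so that the untreated line was the one apart, and Socs1 had an adjusted p of 0.053 without knockout replicate 1. PI3K, AKT and mTOR genes were higher in 11 of 24 and lower in 8. Sgk1, a kinase of that pathway, averaged 64.0 ± 0.418 CPM in the knockout and 188 ± 3.86 CPM in the untreated line (-1.55), Irs2, an adaptor of insulin signalling, was higher (1.30) and Pik3cd was lower (-1.27). In the NF-kappaB and TNF family 11 of 25 were higher and 10 lower, with Traf1 (-2.61), Nfkbie (-1.47) and Fas (1.14) first. Traf1 had only 2, 3 and 4 counts in the knockout libraries, against 42, 34 and 25 in the untreated libraries.

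Lysosome and autophagy genes were higher in 26 of 33 and lower in 2, with a median of 0.63. The 21 lysosomal members had 18 higher and 1 lower. That 1 was Mitf, a transcription factor of lysosomal genes (-1.46), which had 2.01 ± 1.18 CPM in the knockout and 5.12 ± 0.528 CPM in the untreated line. Gabarap, an autophagosome protein, averaged 384 ± 7.38 CPM in the knockout and 161 ± 3.84 CPM in the untreated line (1.25, adjusted p = 1.7e-25). Cd63 (1.18), the proteases Ctsl (1.02), Ctsb (0.97) and Ctsd (0.86), the membrane protein Lamp1 (0.91), Ctsa (0.90) and Hexa (0.88) were higher, and Tfeb, a regulator of such genes, was not called. Of the macrophage and blood markers Cd68, itself a lysosomal membrane protein, made up nearly all of the sum, at 143 CPM in the knockout and 57.4 CPM in the untreated line. The other 7 were each under 1 CPM in both groups; of these only Csf1r, a macrophage receptor, could be tested, and it was higher, at 0.635 CPM in the knockout and 0.228 CPM in the untreated line (1.58, adjusted p = 0.014). Ptprc, which marks blood cells, was at 0 in the knockout and 0.0331 CPM in the untreated line. The part of such cells in the result was not tested. Among 6 endothelial markers 3 were higher and 1 lower, and Pecam1, also made by stem cells, gave 106 CPM of the sum in the knockout and 85.4 CPM in the untreated line.

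The metabolic and biosynthetic lists that follow had medians from -0.28 to 0.32. Serine, glycine and one-carbon genes were lower in 13 of 21 and higher in 3, led by Mat2a, which makes S-adenosylmethionine, with 31.4 ± 3.12 CPM in the knockout and 120 ± 4.88 CPM in the untreated line (-1.95, adjusted p = 8.1e-25), while Aldh1l1 was higher (0.91) and Shmt2 lower (-0.74). Amino acid and sugar transporters were lower in 14 of 22 and higher in 5, with Slc5a1 (-1.38), Slc16a3 (-1.07) and Slc7a8 (-0.91) first. Slc5a1 had only 8, 4 and 7 counts in the knockout libraries, against 31, 37 and 22 in the untreated libraries. Metallothioneins and zinc transporters were lower in 8 of 14 and higher in 2: Mt3 (-1.81), Slc39a4 (-1.23), and Mt2, at 153 ± 4.41 CPM in the knockout, 342 ± 8.28 CPM in the untreated line and 631 CPM in wild type (-1.16). Ribosome assembly factors were lower in 13 of 24 and higher in 4, with Polr1b, a subunit of RNA polymerase I, lowest (-1.02), then Rrp9 (-0.79) and Tcof1 (-0.49). Translation factors went the other way, 14 of 23 higher and 3 lower, with Eif1 (0.73), Eef1a1 and Eif3f (0.63) first. Nuclear genes of the respiratory chain were higher in 20 of 35 and lower in 3, with a median of only 0.16 and Sdhd (0.49), Ndufa2 (0.42) and Sdha (0.32) the most changed. All genes of the highest level class had a median of 0.15.

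Chromatin lists differed from each other in direction. Of DNA methylation and TET genes 7 of 14 were lower and 4 higher, with Zfp57, which keeps methylation at imprinted sites, at 110 ± 1.06 CPM in the knockout and 276 ± 2.30 CPM in the untreated line (-1.33), Tet1 (-1.18) and Dnmt3l (-1.03) lowest. H3K4 methyltransferase and enhancer complexes had 8 higher and 9 lower of 24, with Setd1b (-1.13) and Kmt2c (-0.55, with 51.3 CPM in the knockout, 74.4 CPM in the untreated line and 49.4 CPM in wild type) among the most changed. H3 demethylases had 8 higher and 4 lower of 15, led by Kdm4c (0.75), Kdm7a (0.58) and Phf8 (0.56), and H3K9 methylation genes 6 higher and 7 lower of 15, led by Cbx3 (0.78), Atrx (-0.64) and Tasor (-0.53). Of these, Cbx3 had few reads, at 7.89 ± 0.954 CPM in the knockout and 4.54 ± 0.371 CPM in the untreated line. BAF and NuRD subunits had 16 higher and 4 lower of 35, with Smarca2 (1.42), Smarcd3 (-1.31) and Dpf1 (-0.86) first. In the MYC network 4 of 14 were higher and 5 lower. Mycn averaged 64.9 ± 3.59 CPM in the knockout and 201 ± 2.03 CPM in the untreated line (-1.63, adjusted p = 6.4e-27), Myc was lower as well (-1.39) and Mnt, which opposes them, was higher (0.83).

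Among the remaining lists, the proteasome had 6 higher and 5 lower of 24, but the 3 members lower by at least 2-fold were the catalytic subunits of the immunoproteasome: Psmb8 (-1.87), Psmb9 (-1.51) and Psmb10 (-1.18). Psmb8 had only 9, 0 and 14 counts in the knockout libraries, against 43, 72 and 35 in the untreated libraries. MHC class I and antigen processing genes had 6 higher and 4 lower of 13, and B2m, the invariant light chain, averaged 94.2 ± 6.11 CPM in the knockout and 43.8 ± 2.66 CPM in the untreated line (1.11), with H2-M3 (-0.99) and Cd74 (0.70) next; reads of class I genes can be shared between near-identical copies. Circadian clock genes had 10 higher and 5 lower of 18, with the repressor Bhlhe41 at 166 ± 3.92 CPM in the knockout and 40.5 ± 0.896 CPM in the untreated line (2.04), Nfil3 (1.08) and Bhlhe40 (0.99) first. Cell cycle genes had 12 higher and 9 lower of 29, with E2f2 (-2.01), Ccne1, cyclin E1, at 106 ± 5.23 CPM in the knockout and 257 ± 5.30 CPM in the untreated line (-1.27), and Ccnd2, cyclin D2 (1.26), first. Of 14 inhibitors and genes of the retinoblastoma and E2F families 6 were higher, among them Cdkn1b (0.95), Cdkn1c (0.89) and Cdkn1a (0.78), and 4 were lower, E2f1 (-0.18), E2f2, E2f3 (-0.31) and E2f4 (-0.45). DNA repair genes had 7 higher and 11 lower of 28 (Fanca -0.97, Brca2 -0.61, Apex1 0.61). NRF2 and glutathione genes had 13 higher and 9 lower of 25 (Srxn1 -1.46, Gpx1 0.68, Hmox1 0.62). Heat shock genes had 8 higher and 3 lower of 20 (Hspa4l 0.88, Hspb1 -0.81, Cryab 0.64), and potassium channels 6 higher and 7 lower of 20 (Kcng1 -2.14, Kcna6 1.76). Kcng1 had only 5, 7 and 6 counts in the knockout libraries, against 46, 54 and 44 in the untreated libraries.

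Features of the genes were examined after these values had been seen and are descriptions with no test. Split into 5 classes of equal size by mean level, genes in the lowest class were at least 2-fold lower in 24.4% and at least 2-fold higher in 10.2% of cases, while in the highest class the shares were 0.978% lower and 1.51% higher. Counting any called change, 54.1% of the highest class were higher and 22.4% lower, against 12.4% higher and 26.8% lower in the lowest class. Low levels also carry the largest counting error.

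Long genes leaned upward. Span on the genome, from start to end in the RefSeq annotation, was known for 15970 tested genes (94.6%). Its median was 52.6 kb among genes at least 2-fold higher, 14.6 kb among genes at least 2-fold lower, and 17.9 kb among genes not called. Of 751 genes over 200 kb, 25.7% were at least 2-fold higher and 3.86% at least 2-fold lower, with a median log2 fold change of 0.39, while of 3054 genes of 10 to 20 kb 2.29% were at least 2-fold higher and 12.4% at least 2-fold lower, with a median of -0.10. The median over genes above 200 kb was 0.37, 0.33 and 0.34 in the 3 knockout libraries taken singly. Within each of the 5 level classes, genes over 50 kb had a higher median (0.12, 0.03, 0.09, 0.15 and 0.21, lowest class first) than genes of 10 to 50 kb (-0.69, -0.34, -0.11, 0.02 and 0.11). Genes under 10 kb lay above those of 10 to 50 kb in each class too (-0.36, -0.19, -0.07, 0.03 and 0.18), and in the highest class they came close to the genes over 50 kb. The C91A comparison, made on other libraries but with the same drug on its treated side, had the same median of 0.39 above 200 kb and -0.08 at 10 to 20 kb. Several genes named above are long, among them Prkg1 (1201 kb), Ctnnd2 (857 kb), Fat3 (592 kb), Dach1 (383 kb) and Nell2 (309 kb). The pair at the top of the ranked genes, Acta1 (3.02 kb, 3.25) and Acta2 (15.2 kb, 3.22), is short. Below the level that the ranking required, the long Fat3 rose by 3.83 and the short Scg2 (5.66 kb) by 3.72.

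**Figure D5:**
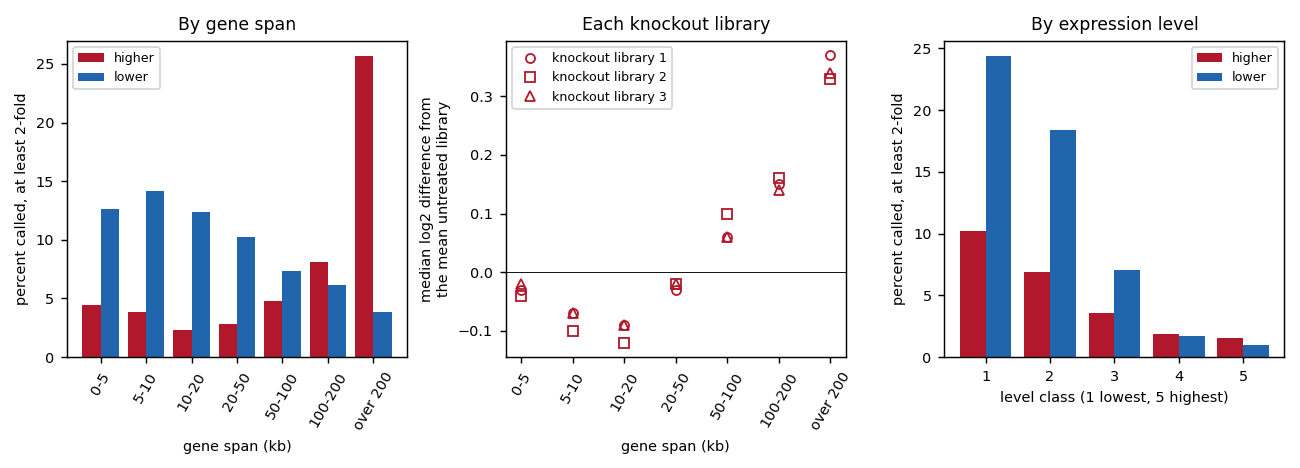
Left, percent of genes called and at least 2-fold higher or lower by gene span in kb; middle, the median log2 difference of each knockout library from the mean of the untreated libraries in the same span classes; right, the same percents by level class. The share higher reaches 25.7% above 200 kb, the 3 libraries lie close together at each span, and the share lower reaches 24.4% in the lowest level class.

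Of 22 chromosomes looked at, X had the highest median after Y, which had only 6 tested genes. Of its 559 tested genes 44.5% were higher and 15.2% lower, with a median of 0.23, against 31.4% higher, 31.6% lower and a median of -0.02 over 15382 autosomal genes. The median on X was above that on autosomes in each of the 5 level classes. X held 2.63%, 2.71% and 2.67% of the counts in the knockout libraries, against 2.35%, 2.39% and 2.37% in the untreated libraries and 2.43% to 2.52% in wild type. In the C91A comparison the median was 0.16 on X and -0.01 on autosomes. Among kinds of gene, 27% of 1031 long non-coding RNAs were lower and 15.9% higher, and 31.8% of protein-coding genes were lower and 33.4% higher.

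Genes beside those that fell tended to be lower too. Over all pairs of adjacent tested genes that did not overlap, 46.2% of the neighbours of genes at least 2-fold lower were themselves lower and 21.6% higher, against 31.4% lower and 31.9% higher for neighbours of any gene. For genes at least 2-fold higher, 41.9% of neighbours were higher and 18.7% lower. These shares depended on the gap. For genes at least 2-fold higher, 42.4% of neighbours were higher under 10 kb, 35.1% at 10 to 100 kb and 46.6% over 100 kb. Neighbours of any gene were higher in 28.7%, 30.3% and 41.5% of cases at those gaps. With a gap over 100 kb, 27.5% of the neighbours of genes at least 2-fold lower were lower, against 20.6% for any gene at that distance. Beside the 10 highest genes only 5 of 19 neighbours were higher and 4 lower. Beside the 10 lowest genes 13 of 20 neighbours were lower and 2 higher, counting Gm32082, which has no gap to Zbtb32. At Bcl2 (chr1:106538176-106714290), by contrast, the neighbour Phlpp1 was not called (0.13) and Kdsr was higher (0.64).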

How the data were processed

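Polyadenylated RNA of mouse embryonic stem cells was sequenced in 18 libraries, 3 per group, 6 of them in the main comparison. GSNAP, version not given, and the build GRCm38 are named in the submitters' processing notes. Per the file headers, the deposited count is the number of reads aligned uniquely to each gene model, and the deposited RPKM is adjusted by the authors' size factors. The sources used here state neither how the factors were made nor whether counting used strand, so overlapping genes cannot be separated with certainty. RPKM served only for levels between genes and to recover those factors.

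Counts were filtered with filterByExpr, scaled by TMM and tested in edgeR 4.0.16 under R 4.3.3, beside limma 3.58.1. The model had a mean for each group, and its estimate of spread came from all 18 libraries, those of the double knockout included. SE is the size of the log2 fold change over the square root of F. DESeq2 1.42.0 was an alternative, beside other scalings, no filter, the 6 libraries alone, equal depth (8106613 counts each) and leaving out each library. The script was tested on simulated data. The total count behind each library sets the precision, and depth was lowest in knockout replicate 2.

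Named genes are Bap1 and 6 BCL2 family genes, then, among called genes with groups that do not overlap and mean log2 CPM no lower than 2, the 10 highest and 10 lowest fold changes, the 8 largest gains and losses of CPM among called genes, 5 near-silent genes each way, and at least the 3 most changed called members of each list whose mean log2 CPM was 0 or more. Of these, 2 list members are not reported here. The comparison, members and lists were chosen with earlier results of these data known. Gene span, chromosome, level class and neighbours were added after the values were seen. Names, spans and promoters came from RefSeq on GRCm38.p6, which named 31049 of 36528 genes, with 78 more from GENCODE.

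Promoter features were to be compared between gene sets. Only 79.5% of tested protein-coding genes had a promoter in the table, 72.8% of those at least 2-fold higher and 76.5% of those at least 2-fold lower, and the share was no better in a first pass over all genes, so that comparison is void and is not reported; 8 motifs had been counted in it.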

Additional observations from a re-analysis of the deposited data

Results flagged for a closer look

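The difference between the knockout effect and the C91A effect (log2) had an adjusted p under 0.05 in edgeR's quasi-likelihood test for 19 of the 26 always-named and ranked genes. It was negative for Bap1 (-1.07), Bcl2 (-3.74), Mcl1 (-0.53), Bcl2l1 (-0.54), Igsf23 (-3.03), Zbtb32 (-1.92), Inhbb (-2.72), Halr1 (-2.04), Exoc3l (-1.62), Foxd3 (-1.68), Chrna9 (-1.07) and Adad2 (-1.05). It was positive for Bbc3 (0.33), Pmaip1 (0.46), Bax (0.29), Lhx9 (0.65), Cdh2 (0.81), Nell2 (0.67) and Vgf (0.66). The differences for Lhx9, Chrna9 and Adad2 lost their call in at least 1 alternative, with adjusted p up to 0.12, 0.18 and 0.15. Bap1 and Bcl2l1 differ from the rest in that the C91A mutant rose further or alone: Bap1 changed by -0.17 in the knockout and 0.89 in the mutant. The ranked genes were chosen for extreme values in the knockout, which by itself favours a difference of the same sign as their change.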

How the results depend on the processing

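Every count of called genes stayed within 1.5 times its value under all alternatives, and no call changed sign. Genes called numbered 10392, and 9047 (equal depth) to 10426 (the 6 libraries alone) under the 6 alternatives that keep all replicates; DESeq2 called 10052. Leaving out 1 library gave 9420 to 9939, lowest without knockout replicate 3. At equal depth 84.5% of the called genes remained called, the lowest share, and all shared calls kept their sign. Of 731 genes followed singly 624 kept their call under every alternative run. All always-named and ranked genes were among those 624; Foxc1, Socs1 and Wnt3a, named from lists, were not. The difference from the C91A effect lost its call for Lhx9, Chrna9 and Adad2 in at least 1 alternative, with adjusted p up to 0.12, 0.18 and 0.15. No paired analysis was possible because the labels carry no replicate numbers; those used here follow accession order and only name libraries. Depth limits the genes near silence: those with under 10 counts a library have no precise fold change, and intervals from counts cover counting error only.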
